A study of Arabidopsis thaliana with 9 samples.

Results

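The 9 genes described here, *CYP79B2*, *CYP79B3*, *CYP83B1*, *SUR1*, *MYB34*, *MYB51*, *CYP71A12*, *CYP71A13* and *PAD3*, encode enzymes and MYB regulators of the tryptophan-derived branch that makes indole glucosinolates and camalexin in Arabidopsis thaliana. They were found by gene symbol in both deposited tables, all 9 among 24635 genes. The rule uses no measured value, but the genes were proposed with earlier results of these data known. Polyadenylated RNA of seedlings was sequenced on a DNBSEQ instrument in 3 groups of 3 biological replicates, so n = 3 for each group mean below. The first group was the untreated wild type Col-0. The second was the untreated mutant melinoe, a line from EMS (chemical) mutagenesis whose labelled lesion is in FMN/FHY (At4g21470), which encodes a bifunctional enzyme that makes flavin mononucleotide from riboflavin and can hydrolyse it again. The third was Col-0 given riboflavin (vitamin B2) for 8 h within the dark phase, at 0.6 mM by the sample labels and at 0.2 mM by the design text. The design text gives an age of 6 days for the untreated seedlings, and the riboflavin group was taken here as 6 days old too. All plates had 1% sucrose and days of 16 h light and 8 h dark. The melinoe group is 1 mutant line, and the labels do not say whether other EMS mutations were crossed out. The labels give neither a mock treatment nor the hour at which untreated seedlings were collected, so riboflavin and hours of darkness cannot be told apart in any comparison with the third group.

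Indole glucosinolates are sulfur- and nitrogen-rich defence compounds of Brassicaceae that are stored intact and cleaved when tissue is damaged or attacked, whereas camalexin is an antimicrobial phytoalexin made on demand. Both start from tryptophan, which CYP79B2 and CYP79B3 convert to indole-3-acetaldoxime. From that branch point CYP83B1 and SUR1 lead to indole glucosinolates, while CYP71A12 and CYP71A13 lead to indole-3-acetonitrile, from which PAD3 and other enzymes make camalexin and related indolic compounds.

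The deposited counts summed per library to between 19964397 (melinoe) and 21421418 (Col-0). FMN/FHY itself stood at 42.0 ± 2.27 CPM (counts scaled to the size of the library, mean ± SD) in Col-0, 37.9 ± 1.26 in melinoe and 112 ± 1.54 with riboflavin. Its change in melinoe was −0.15 ± 0.052 (log2 ± SE, edgeR quasi-likelihood test with Benjamini-Hochberg adjustment over all genes, adjusted p = 0.0168), which does not check a lesion within the transcript. Summed CPM of 8 dark-inducible genes ran from 2010 to 2131 in Col-0, from 1463 to 1547 in melinoe and from 4087 to 4109 with riboflavin, where all 8 were called higher than in Col-0, while 1 was higher and 4 were lower in melinoe. Summed CPM of 6 genes of green tissue ran from 11422 to 11799 in Col-0, from 9100 to 9690 in melinoe and from 4099 to 4149 with riboflavin, and all 6 were called lower in both. Summed CPM of 8 root genes ran from 115 to 129 in Col-0, from 94.9 to 104 in melinoe and from 107 to 111 with riboflavin. Of these root genes 0 were called higher and 5 lower in melinoe, and 2 higher and 4 lower after riboflavin. These marker counts stand beside all genes tested, of which 25.4% were called higher and 25.2% lower in melinoe. After riboflavin 36.8% of all genes tested were called higher and 37.4% lower. All 22 markers were detected, the lowest with a mean of 5.87 CPM, and their part in the results below was not tested. In bulk seedling RNA, fewer cells of a type and less RNA per cell cannot be told apart.

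In melinoe, 5 of the 9 genes rose and 0 fell at an adjusted p below 0.05, namely both CYP79B genes, *CYP83B1* and both CYP71A genes, with a median log2 fold change over the 9 of 0.73. Of all 20277 genes tested in that comparison, 25.4% rose and 25.2% fell, with a median of 0.00. The groups did not overlap for 5 of the 9, the same 5 that rose, a share close to the 56.7% of all genes tested. After riboflavin, 4 of the 9 rose (*PAD3*, *CYP71A12*, *CYP79B2* and *CYP83B1*) and 3 fell (*SUR1*, *MYB34* and *MYB51*), with a median of 0.00, where 36.8% of 20356 genes tested rose and 37.4% fell. The groups did not overlap for 7 of the 9, the same 7 that rose or fell, a share close to the 75.6% of all genes tested. These 2 comparisons share the Col-0 libraries, so the direct comparison of riboflavin with melinoe is the test of whether the 2 effects differ. In it 1 of the 9 genes, *PAD3*, was higher with riboflavin and the other 8 were lower, with a median of −0.72, set beside 37.0% higher and 37.1% lower of 20344 genes tested. Levels of the groups did not overlap for any of the 9 in this direct comparison, which held for 75.4% of all genes tested.

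**Figure D1:**
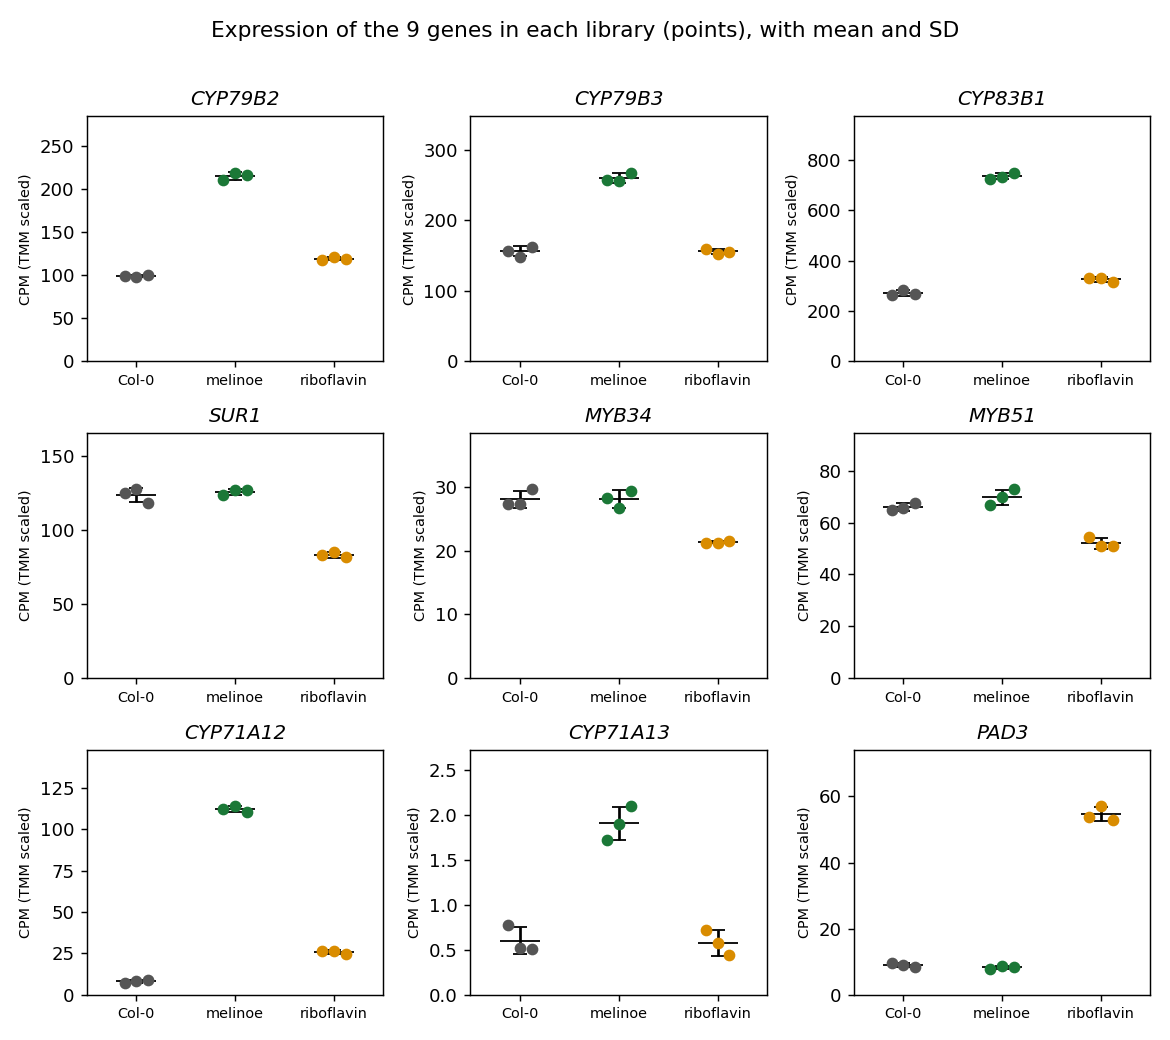
Expression of the 9 genes in each library, in CPM scaled by TMM (vertical axes, each starting at 0), for Col-0, melinoe and riboflavin-treated Col-0. Each point is 1 library, the wide line is the group mean and the bars are the SD (n = 3); the melinoe points stand alone at the top for both CYP79B genes, *CYP83B1* and both CYP71A genes, and the riboflavin points stand alone at the top for *PAD3* and at the bottom for *SUR1*, *MYB34* and *MYB51*.

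The entry enzymes come first. *CYP79B2* (AT4G39950) lies on the plus strand of chromosome 4 at 18525042-18527602 and has 3 exons, and *CYP79B3* (AT2G22330) lies on the plus strand of chromosome 2 at 9488413-9491404 and has 2 exons, in the RefSeq annotation of TAIR10.1. Their aligned coding sequences were identical at 80.8% of 1694 bases. The 250 bases before each gene start are shown because the pair, which catalyses one step, shares a stretch there. Capitals mark runs of 12 or more bases found in both, at chr4:18524792-18525041 (plus strand) and chr2:9488163-9488412 (plus strand), from RefSeq TAIR10.1.
CYP79B2: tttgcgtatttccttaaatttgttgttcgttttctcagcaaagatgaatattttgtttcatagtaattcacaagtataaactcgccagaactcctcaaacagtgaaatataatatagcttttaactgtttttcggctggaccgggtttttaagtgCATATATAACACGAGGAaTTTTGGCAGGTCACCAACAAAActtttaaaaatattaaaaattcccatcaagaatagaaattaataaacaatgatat
CYP79B3: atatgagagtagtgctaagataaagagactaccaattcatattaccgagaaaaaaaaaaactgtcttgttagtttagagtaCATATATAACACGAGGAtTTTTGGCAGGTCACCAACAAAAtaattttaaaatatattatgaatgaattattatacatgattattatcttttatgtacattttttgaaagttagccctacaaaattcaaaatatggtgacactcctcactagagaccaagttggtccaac
The longer run, TTTTGGCAGGTCACCAACAAAA, began 77 bases before the start of *CYP79B2* and 151 bases before that of *CYP79B3*. It was noticed on reading the windows, and on either strand it stood in 2 of 27443 gene windows of the same length (0.00729%), which were these 2. The run was chosen from these 2 windows, so its presence in both was fixed in advance. A shared run of letters is a description and not a site.

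*CYP79B2* stood at 98.7, 98.5 and 100.2 CPM in the Col-0 libraries, 210.2, 219 and 217 in melinoe, and 118, 121 and 119 with riboflavin. The 3 groups did not overlap, with melinoe highest and Col-0 lowest. The gene rose 2.17-fold in melinoe (log2 1.12 ± 0.038 SE, edgeR adjusted p = 2.09e-19) and 1.20-fold after riboflavin (log2 0.27 ± 0.038, edgeR adjusted p = 4.81e-07). With riboflavin it was 1.79-fold lower than in melinoe (edgeR adjusted p = 5.66e-19).

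*CYP79B3*, which catalyses the same step, stood at 157, 149 and 163 CPM in Col-0, 258, 255 and 268 in melinoe, and 159, 153 and 156 with riboflavin. Melinoe again stood above the rest, while the Col-0 and riboflavin libraries lay in one range. The rise in melinoe was 1.66-fold (log2 0.73 ± 0.040 SE, edgeR adjusted p = 6.36e-15). After riboflavin the log2 fold change was 0.00 with a 95% interval from −0.080 to 0.081 (edgeR adjusted p = 0.988), so a change of the size seen for *CYP79B2* lay outside the interval. The ratio of *CYP79B2* to *CYP79B3* in TPM (computed here from the deposited counts and RefSeq exon lengths, so that genes can be compared) was 0.646 to 0.695 in Col-0, 0.849 to 0.900 in melinoe and 0.775 to 0.831 with riboflavin. All 3 pairs of groups were free of overlap, and each gave p = 0.1 in an exact two-sided permutation test, the smallest p that 3 against 3 allows (0.18 after adjustment over the 9 ratio tests made).

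*CYP83B1* (AT4G31500, minus strand of chromosome 4 at 15273410-15275404, 2 exons) oxidises the aldoxime and commits it to indole glucosinolates. It was the most abundant of the 9 in every group, at 264, 284 and 266 CPM in Col-0, 725, 734 and 750 in melinoe, and 331, 331 and 314 with riboflavin. No groups overlapped, and the order was again melinoe, riboflavin, Col-0. It rose 2.71-fold in melinoe (log2 1.44 ± 0.038 SE, edgeR adjusted p = 4.73e-22) and 1.20-fold after riboflavin (log2 0.26 ± 0.037, edgeR adjusted p = 4.83e-07). Riboflavin-treated seedlings had 2.24-fold less than melinoe (edgeR adjusted p = 4.41e-23).

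*SUR1* (AT2G20610, minus strand of chromosome 2 at 8877887-8880440, 7 exons) encodes the C-S lyase that acts after CYP83B1 and is shared with the aliphatic glucosinolates. It stood at 125, 128 and 119 CPM in Col-0, 124, 127 and 127 in melinoe, and 82.9, 85.3 and 81.6 with riboflavin. Col-0 and melinoe overlapped, and the riboflavin libraries were all below them. The log2 fold change in melinoe was 0.02, with a 95% interval from −0.061 to 0.10 (edgeR adjusted p = 0.687). Both CYP79B genes and *CYP83B1*, of earlier steps in the route, rose there. After riboflavin *SUR1* fell by 0.57 on the log2 scale (SE 0.041, edgeR adjusted p = 1.19e-12), a 1.48-fold decrease. Of the 9 upstream windows of 250 bases, only that of *SUR1* held a W-box (TTGACC or TTGACT, searched on both strands), with TTGACT at 148 to 143 bases before the start, and only that of *SUR1* held a G-box (CACGTG), at 50 to 45 bases. The W-box was in 28.4% and the G-box in 6.49% of all 27443 windows, and the evening element AAATATCT, in 4.79% of them, was in 0 of the 9. From annotated gene start to coding start there were 0 bases for both CYP71A genes and 738 for *MYB34*. The windows may therefore not cover like regions.

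**Figure D2:**
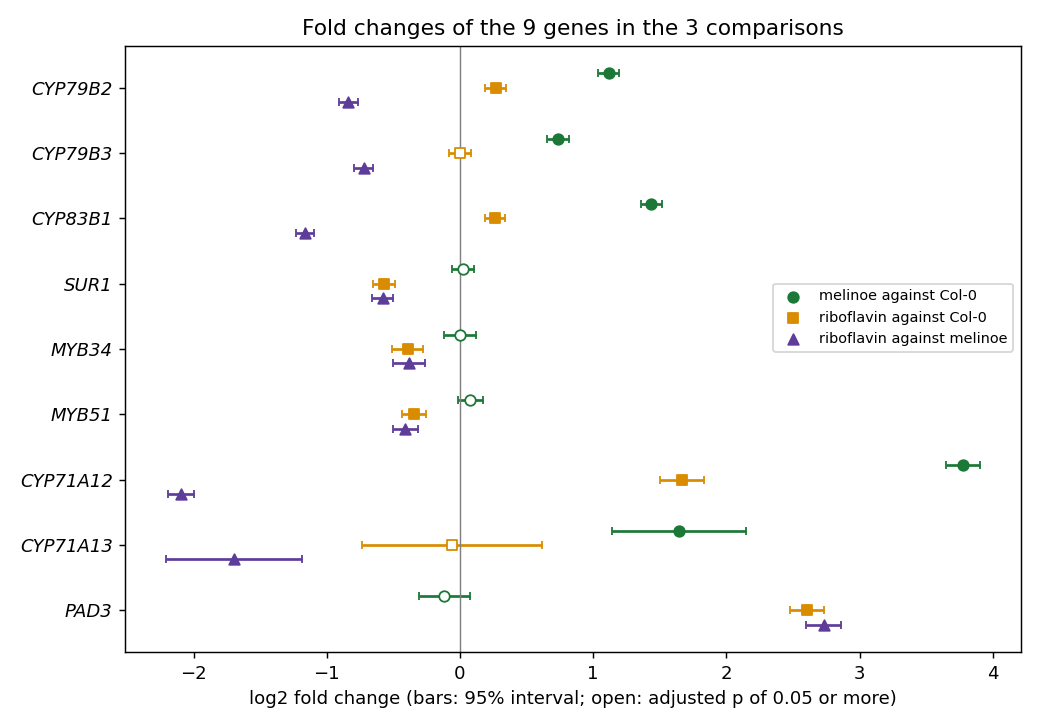
Log2 fold changes of the 9 genes (horizontal axis) in melinoe against Col-0 (circles), riboflavin against Col-0 (squares) and riboflavin against melinoe (triangles), with 95% intervals from edgeR. Open symbols had an adjusted p of 0.05 or more; *CYP71A12* lies farthest right in melinoe at 3.77 and *PAD3* after riboflavin at 2.60.

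MYB34 and MYB51 are R2R3-type transcription factors that activate indole glucosinolate genes. *MYB34* (AT5G60890, plus strand of chromosome 5 at 24494291-24496371, 3 exons) stood at 27.4, 27.3 and 29.6 CPM in Col-0, 28.3, 26.7 and 29.5 in melinoe, and 21.3, 21.2 and 21.5 with riboflavin. *MYB51* (AT1G18570, plus strand of chromosome 1 at 6389399-6391386, 3 exons) stood at 64.8, 65.6 and 67.7 CPM in Col-0, 66.9, 69.7 and 72.7 in melinoe, and 54.2, 50.8 and 50.8 with riboflavin. For both regulators the Col-0 and melinoe libraries overlapped and the riboflavin libraries lay below. In melinoe, the log2 fold change of *MYB34* was 0.00 (95% interval −0.12 to 0.12, edgeR adjusted p = 0.993) and that of *MYB51* was 0.08 (−0.014 to 0.17, edgeR adjusted p = 0.152). After riboflavin *MYB34* fell by 0.39 (SE 0.058, edgeR adjusted p = 9.68e-07) and *MYB51* fell by 0.34 (SE 0.045, edgeR adjusted p = 1.34e-07) on the log2 scale. The TPM ratio of *MYB51* to *MYB34* had a geometric mean of 2.34 in Col-0, 2.47 in melinoe and 2.42 with riboflavin, with exact two-sided permutation p-values from 0.3 to 0.6 (0.386 to 0.6 adjusted over the 9 ratio tests).

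CYP71A12 and CYP71A13 convert the aldoxime to indole-3-acetonitrile, and their genes lie close together on the minus strand of chromosome 2, at 13099486-13101371 for *CYP71A12* (AT2G30750) and at 13109909-13111988 for *CYP71A13* (AT2G30770), each with 4 exons. Between them lie 8537 bases. The coding sequences are 1494 bases each and identical at 90.4% of positions, with a longest identical run of 59 bases, so the deposited counts may split reads between them and are uncertain in that sense. The first 120 coding bases of each are shown, at chr2:13101252-13101371 and chr2:13111869-13111988 (minus strand, RefSeq TAIR10.1), with capitals at the bases that differ, to let the likeness be seen.
CYP71A12: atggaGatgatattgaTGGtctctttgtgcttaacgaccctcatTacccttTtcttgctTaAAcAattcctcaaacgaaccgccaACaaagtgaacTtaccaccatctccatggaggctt
CYP71A13: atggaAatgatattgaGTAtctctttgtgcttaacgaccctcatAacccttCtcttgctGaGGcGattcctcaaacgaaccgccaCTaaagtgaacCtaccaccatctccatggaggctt
*CYP71A12* had the largest rise of the 9 genes in melinoe. It stood at 7.11, 8.21 and 9.26 CPM in Col-0, 112, 114 and 111 in melinoe, and 26.8, 26.8 and 24.5 with riboflavin. The groups were far apart, with each riboflavin library above each Col-0 library and below each melinoe library. The rise was 13.7-fold in melinoe (95% interval 12.5 to 15.0, edgeR adjusted p = 1.59e-26), which ranked 28 from the top of all genes tested, and 3.18-fold after riboflavin (2.84 to 3.57, edgeR adjusted p = 1.85e-16). Riboflavin-treated seedlings had 4.27-fold less than melinoe (edgeR adjusted p = 3.96e-26).

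*CYP71A13* was the scarcest of the 9, with 17, 11 and 11 counts in Col-0, 34, 39 and 43 in melinoe, and 15, 12 and 9 with riboflavin. All melinoe libraries were above all others, and the Col-0 and riboflavin libraries overlapped. The rise in melinoe was 3.13-fold (95% interval 2.21 to 4.43, edgeR adjusted p = 2.35e-06). After riboflavin the fold was 0.959, with an interval from 0.601 to 1.53 (edgeR adjusted p = 0.877), so a change within that range was not detectable at this depth. A gene on the opposite strand, AT2G30766, overlaps *CYP71A13* by 572 bases. Its log2 fold change was −1.61 in melinoe and −3.48 after riboflavin (edgeR adjusted p = 0.000517 and 9.33e-07), and whether the counting used strand is not given in the sources used here. The TPM ratio of *CYP71A12* to *CYP71A13* was 9.12, 15.9 and 18 in Col-0, 65.0, 60.1 and 52.9 in melinoe, and 36.9, 46.8 and 56.0 with riboflavin. Both other groups were above Col-0 in every library, with an exact two-sided permutation p = 0.1 for each (0.18 adjusted), while melinoe and riboflavin overlapped (exact p = 0.2, 0.3 adjusted).

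PAD3 (CYP71B15) carries out the last oxidations of camalexin synthesis. Its gene (AT3G26830) lies on the plus strand of chromosome 3 at 9887917-9889791 and has 2 exons. The 250 bases before its start, chr3:9887667-9887916 (plus strand, RefSeq TAIR10.1), are shown because *PAD3* alone of the 9 rose with riboflavin and not in melinoe. Capitals mark each copy of TTTGAAAAGTNTTC.
PAD3: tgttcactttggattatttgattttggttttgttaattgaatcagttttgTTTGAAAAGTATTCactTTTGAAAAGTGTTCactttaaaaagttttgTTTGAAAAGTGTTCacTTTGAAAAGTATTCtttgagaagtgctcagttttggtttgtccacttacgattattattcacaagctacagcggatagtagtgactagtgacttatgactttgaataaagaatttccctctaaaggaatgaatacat
This unit, noticed on reading the window, stood there in 4 copies. On either strand at least 1 copy was in 3 of 27443 windows (0.0109%), and 4 or more copies were in 1 window (0.00364%), that of *PAD3*. The unit was built from this window itself, so its rarity elsewhere is no test. A link of these letters with the rise after riboflavin was not tested.

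*PAD3* stood at 9.59, 9.05 and 8.32 CPM in Col-0, 7.86, 8.75 and 8.28 in melinoe, and 53.8, 57.0 and 53.0 with riboflavin. Col-0 and melinoe overlapped, and every riboflavin library was far above both. The rise after riboflavin was 6.08-fold (95% interval 5.56 to 6.66, edgeR adjusted p = 4.01e-23). In melinoe the log2 fold change was −0.12, with an interval from −0.31 to 0.075 (edgeR adjusted p = 0.310). Against melinoe the riboflavin group was 6.64-fold higher (edgeR adjusted p = 1.59e-25), the one difference of the 9 with that sign. *CYP71A12*, upstream of *PAD3* in the route, thus differed between these 2 groups in the opposite direction.

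Compared per length in TPM, the order of the 9 genes changed with the group. In Col-0 it was *CYP83B1* (231 ± 7.74, mean ± SD), *CYP79B3* (113 ± 5.71), *SUR1* (112 ± 3.97), *CYP79B2* (75.0 ± 1.01), *MYB51* (59.9 ± 1.40), *MYB34* (25.6 ± 1.28), *CYP71A12* (8.87 ± 1.15), *PAD3* (8.18 ± 0.592) and *CYP71A13* (0.654 ± 0.169). Neighbours in that order overlapped for *CYP79B3* with *SUR1* and for *CYP71A12* with *PAD3*. In melinoe *CYP71A12* reached 117 ± 2.11 TPM and stood at rank 4, above *SUR1* at 109 ± 2.08 and below *CYP79B2* at 156 ± 3.95, while *PAD3* stood at rank 8 with 7.25 ± 0.421. No neighbours overlapped in melinoe. With riboflavin *PAD3* stood at rank 5 with 49.4 ± 2.05 TPM, overlapping *MYB51* at 46.8 ± 1.65, and *CYP71A12* stood at rank 7 with 28 ± 1.39. *CYP83B1* was first and *CYP71A13* last in all 3 groups. Over the 9 genes the summed TPM was 633 ± 2.84 in Col-0, 1257 ± 22.2 in melinoe and 696 ± 13.2 with riboflavin, and for the CYP71A pair it was 9.52 ± 1.01, 119 ± 2.07 and 28.6 ± 1.52. Group means in the authors' deposited table were lower, with the values computed here 1.05 to 1.16 times as high. *CYP79B3* was above *SUR1* in Col-0 in both, with authors' means of 107 and 97.1 TPM in the authors' deposited table.

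**Figure D3:**
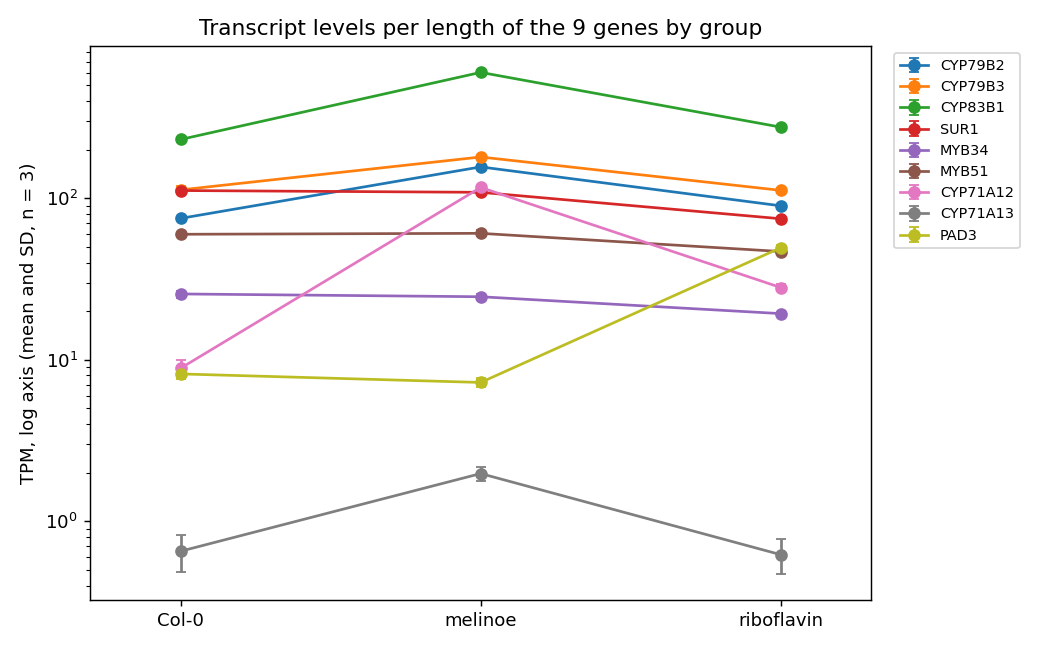
Level of each of the 9 genes in TPM (vertical log axis) in the 3 groups, as mean and SD of 3 libraries. Lines only join the means of 1 gene; *CYP71A12* passes *SUR1* and both MYB genes in melinoe, and *PAD3* reaches the level of *MYB51* with riboflavin.

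For each list from here on, counts stand beside all genes tested, of which 25.4% rose and 25.2% fell in melinoe. After riboflavin 36.8% of all genes tested rose and 37.4% fell. Further steps of indole glucosinolate synthesis need other core enzymes. Of 5 such genes, 4 rose and 0 fell in melinoe (median log2 0.26), and 3 rose and 1 fell after riboflavin (median 0.19). *SOT16*, a sulfotransferase of the last step, rose by a log2 of 0.73 in both (edgeR adjusted p = 6.28e-15 and 2.25e-15). *UGT74B1*, the glucosyltransferase before it, rose by 0.26 and 0.19. *GGP1*, a peptidase that cleaves the glutathione conjugate for both glucosinolates and camalexin, had a log2 fold change of −0.01 in melinoe (edgeR adjusted p = 0.826) and rose by 0.89 after riboflavin (edgeR adjusted p = 1.61e-18). It stood at 207, 206 and 207 CPM in Col-0, 202, 209 and 205 in melinoe, and 389, 379 and 376 with riboflavin, so that, like *PAD3*, it was apart from the rest only in the riboflavin libraries. *GSTF9*, a glutathione transferase with a close paralog (*GSTF10*), was the lowest of the list after riboflavin, where it fell by 0.40.

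Among 6 other regulators, 3 rose and 2 fell in melinoe, and 2 rose and 2 fell after riboflavin. The counts after riboflavin were near the shares of all genes tested, 36.8% higher and 37.4% lower. *MYB122*, the third MYB of the indole branch, rose by a log2 of 0.46 in melinoe (edgeR adjusted p = 0.00847) from a low level, with 54 to 66 counts in Col-0 and 73 to 84 in melinoe, and was at −0.30 after riboflavin (edgeR adjusted p = 0.0875). *MYC2*, a jasmonate-response factor that acts with these MYBs, was the lowest of the list in both, having fallen by 1.14 in melinoe and by 1.03 after riboflavin (edgeR adjusted p = 1.72e-19 and 2.47e-19). Its relative *MYC3* rose by 0.25 and 0.67.

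Of 8 other genes of camalexin and related indolic compounds, 6 rose and 1 fell in melinoe (median log2 1.54), and 5 rose and 0 fell after riboflavin (median 1.27). *FOX1* (AT1G26380), an oxidase that acts after CYP71A12 in the route to 4-hydroxyindole-3-carbonyl nitrile, stood at 9.32, 8.87 and 8.88 CPM in Col-0, 84.5, 86.5 and 82.8 in melinoe, and 67.2, 64.0 and 64.8 with riboflavin. It rose 9.35-fold and 7.25-fold (edgeR adjusted p = 5.29e-26 and 7.82e-25), with no overlap between any groups. *CYP82C2*, the hydroxylase of the same route, stood at 1.74, 1.97 and 2.29 CPM in Col-0, 10.7, 11.1 and 10.1 in melinoe, and 1.88, 2.43 and 1.51 with riboflavin. It thus rose 5.30-fold in melinoe (edgeR adjusted p = 2.38e-15), while its log2 fold change after riboflavin was −0.04 (edgeR adjusted p = 0.870), and the direct difference was −2.43 (edgeR adjusted p = 1.74e-16). *ABCG40*, which encodes an ABC transporter, had the opposite pattern, with 11, 18 and 12 counts in Col-0, 16, 20 and 23 in melinoe, and 223, 217 and 212 with riboflavin. It rose 16.4-fold after riboflavin (edgeR adjusted p = 1.95e-18) and had a log2 fold change of 0.60 in melinoe (edgeR adjusted p = 0.0823). The lowest of the list after riboflavin was *GSTU13* at −0.09 (edgeR adjusted p = 0.0571).

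*WRKY33*, a transcription factor known to bind the *PAD3* promoter during pathogen response, stood at 155, 146 and 147 CPM in Col-0, 86.9, 78.1 and 83.2 in melinoe, and 149, 148 and 151 with riboflavin. It fell by 0.85 on the log2 scale in melinoe (SE 0.044, edgeR adjusted p = 1.95e-15), with no overlap with Col-0. After riboflavin, where *PAD3* rose, the log2 fold change of *WRKY33* was 0.00 (edgeR adjusted p = 0.950). *ANAC042*, another regulator of camalexin genes, rose by 2.22 and 2.42 in the respective comparisons with Col-0 (edgeR adjusted p = 7.40e-14 and 7.61e-16). *CYP71B6*, which acts on indole-3-acetonitrile, rose by 1.05 and 1.22, and *GSTF6*, a glutathione transferase with a near-identical paralog, rose by 2.04 and 1.31.

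**Figure D4:**
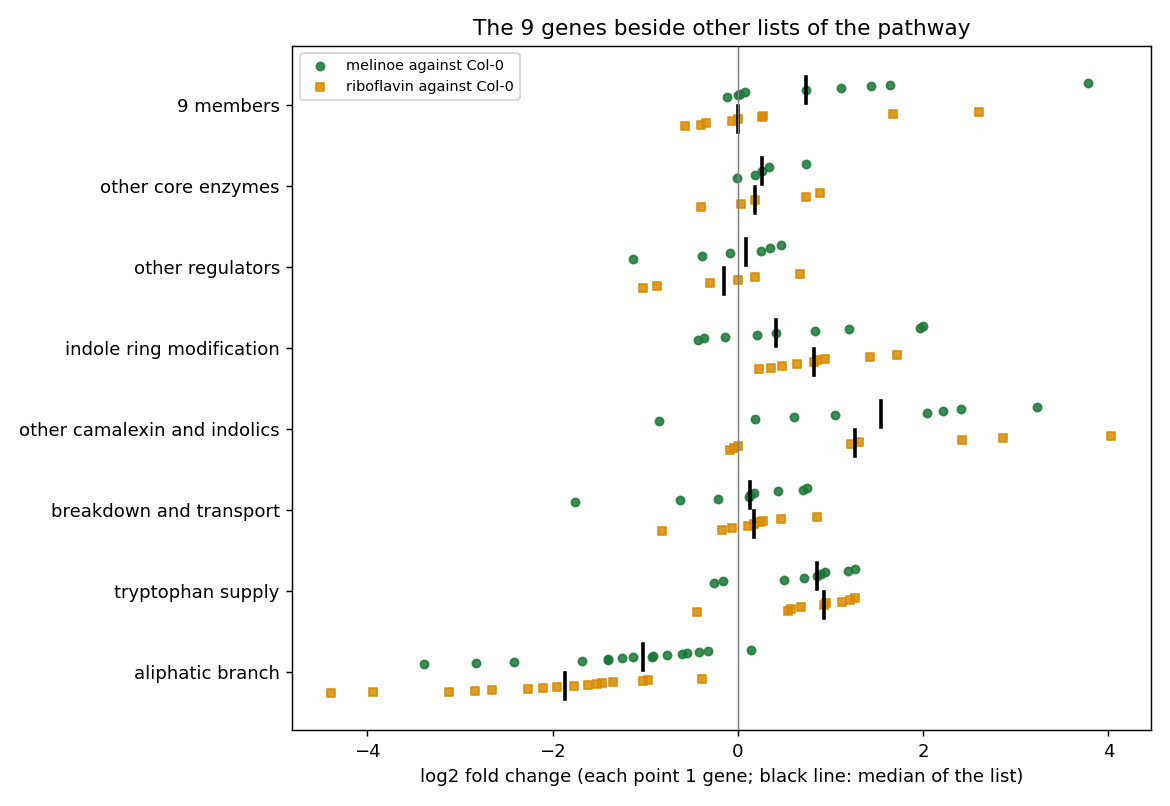
Log2 fold change (horizontal axis) of each gene of the 9 and of 7 other lists of the pathway, in melinoe (circles) and after riboflavin (squares), each against Col-0. Black lines are list medians; the aliphatic branch lies left of 0 except for 1 gene in melinoe (*SOT17*, 0.14), and the tryptophan supply list has medians of 0.85 and 0.93.

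Enzymes that decorate the indole ring rose in both conditions for part of the list. Of 9 such genes, 6 rose and 2 fell in melinoe, and 8 rose and 0 fell after riboflavin. *CYP81F2*, which hydroxylates the ring in pathogen defence, rose by a log2 of 1.96 and 1.72 (edgeR adjusted p = 2.41e-21 and 2.16e-20), and *IGMT2*, a methyltransferase of the next step, by 1.99 and 1.42 (edgeR adjusted p = 2.56e-20 and 6.61e-16). *IGMT4* rose by 1.20 and 0.94, and the reads of the similar IGMT genes may be split between them. *IGMT5* was the lowest of the list in melinoe, where it fell by 0.43, and it rose by 0.36 after riboflavin, where *CYP81F3* was lowest at 0.22 (edgeR adjusted p = 0.0636).

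For breakdown and transport of glucosinolates, 6 of 9 genes rose and 3 fell in melinoe, and 6 rose and 2 fell after riboflavin. *PEN2*, an atypical myrosinase that cleaves indole glucosinolates in living cells, rose by a log2 of 0.75 and 0.27 (edgeR adjusted p = 8.13e-15 and 7.13e-07). *ESP*, a protein that steers breakdown products towards nitriles, moved in opposite directions, with 31, 39 and 28 counts in Col-0, 11, 10 and 6 in melinoe, and 52, 65 and 54 with riboflavin. It fell by 1.76 in melinoe and rose by 0.86 after riboflavin (edgeR adjusted p = 9.02e-06 and 0.000152). *TGG2*, a classical myrosinase, was the lowest of this list after riboflavin, where it fell by 0.82.

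Tryptophan synthesis supplies the precursor. Of 9 tryptophan synthesis genes, 7 rose and 1 fell in melinoe, and 8 rose and 1 fell after riboflavin, led by *TSA1* in melinoe (log2 1.26, and 1.13 after riboflavin) and *IGPS* after riboflavin (1.26, and 1.19 in melinoe). *TSB1* rose by 0.85 and 1.21, with reads that may be split with its paralog *TSB2*, while *ASA2* was the gene that fell (−0.26 and −0.44). Of the 2 kinases that activate sulfate for the sulfotransferases, *APK2* rose by 0.35 in melinoe and fell by 0.34 after riboflavin, while *APK1* was at 0.07 (edgeR adjusted p = 0.155) and rose by 0.20. The aliphatic glucosinolate genes, which draw on methionine, moved the other way, with 15 of 16 lower and 1 higher in melinoe (median −1.03) and 16 of 16 lower after riboflavin (median −1.86). *CYP79F1*, the aliphatic counterpart of the CYP79B genes, fell by 2.83 and 4.39 on the log2 scale. In melinoe *MYB76*, *MYB29*, *FMOGS-OX1*, *CYP83A1*, *MAM1*, *BCAT4* and *BAT5* also fell by 1.13 to 3.39, and after riboflavin all of the list but *MAM3* (−0.97) and *SOT17* (−0.39) fell by more than 1. The largest of these falls in melinoe, that of *MYB76*, is uncertain in size. *MYB76* had 14 to 17 counts in Col-0 and 0 to 3 in melinoe and with riboflavin, too few for the direct comparison below. The pathway lists other than the 9 and the aliphatic branch held 48 genes, including those of breakdown, transport, tryptophan supply and sulfate activation. Of these 48, 33 rose and 9 fell in melinoe (median 0.35) and 33 rose and 7 fell after riboflavin (median 0.47). Of all genes tested, 25.4% rose and 25.2% fell in melinoe, and 36.8% rose and 37.4% fell after riboflavin.

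Set directly against melinoe, the riboflavin group had 19 of the same 48 genes higher, 22 lower and a median of 0.00, beside 1 higher and 8 lower of the 9. Of all genes tested in that comparison, 37.0% were higher and 37.1% lower. *ABCG40* was higher by a log2 of 3.44, *ESP* by 2.63, *CYP81F1*, another ring hydroxylase (under the symbol CYP91A2 in the tables), by 1.00, *GGP1* by 0.91, *WRKY33* by 0.87, *PAI2*, a tryptophan synthesis gene, by 0.71 and *MYC3* by 0.43. Lowest in their lists were *CYP82C2* at −2.43, *MYB122* at −0.76, *APK2* at −0.67, *GSTF9* at −0.57, *IGMT2* at −0.56, *GTR2*, a glucosinolate transporter gene, at −0.49 and *ASA2* at −0.18. All of these differences passed the test, the weakest being that of *ASA2* (edgeR adjusted p = 0.0169). Of the 15 aliphatic genes tested, 15 were lower, from *SOT18* at −0.43 to *CYP79F1* at −1.55, with *MYB29*, *CYP83A1*, *FMOGS-OX1* and *IMD1* also lower by more than 1.

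The gene with the most similar pattern to each of the 9 was found by the root mean square difference of log2 CPM, each gene centred on its Col-0 mean, over the 9 libraries, with 0.5 CPM added before the log, and among 17541 other genes with a mean count of at least 50 (17542 for *CYP71A13*, itself below that mean). The nearest were *PLL4* to *CYP79B2* (0.049), *LBD39* to *CYP79B3* (0.050), AT1G13670 to *CYP83B1* (0.060), AT1G63860 to *SUR1* (0.030), AT5G58520 to *MYB34* (0.041), AT1G71900 to *MYB51* (0.035), AT5G48430 to *CYP71A12* (0.20), *ABCG1* to *CYP71A13* (0.13) and *NSP5* to *PAD3* (0.091). Over the 3 group means in place of the libraries, 2 of these 9 stayed the nearest, those of *CYP83B1* and *CYP71A12*. The 0.5 CPM added is about the level of *CYP71A13* itself in Col-0, and the fitted log2 fold change in melinoe was 1.08 for *ABCG1* and 1.65 for *CYP71A13*. None of the 9 nearest genes belongs to the lists above, although *NSP5* encodes a nitrile-specifier protein of glucosinolate breakdown. Within the 9, the nearest other member to *MYB34* was *MYB51* (0.068, rank 85 among all genes compared), and to *MYB51* it was *MYB34* (rank 86). To *SUR1* it was *MYB34* (0.13, rank 785). *CYP83B1* was nearest to *CYP79B2* (0.19, rank 80) and to *CYP71A12* (1.53, rank 221). *CYP79B2* was nearest to *CYP83B1* (0.19, rank 38), *CYP71A13* (0.22, rank 56) and *CYP79B3* (0.27, rank 669). For *PAD3* the nearest of the other 8 ranked only 9039.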

How the data were processed

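Strand-specific polyA libraries of 9 seedling samples were sequenced, per the labels. The authors deposited 2 tables, 1 per comparison with Col-0, that hold expected counts per gene, TPM (scaled to length and library size), log2 fold changes and their p-values and q-values. Per the submitters' processing notes the tools were Bowtie2, RSEM and DESeq2 with build TAIR10, while the design text names SOAPnuke 1.5.2 and HISAT2 2.0.4, so the aligner is not settled. The joined tables held 24635 genes, of which 23856 were in both, and the rest were set to 0 counts in the libraries of the table that lacked them. The deposited expected counts, 1.904% of them not whole, were rounded. TPM per gene and library was computed from the deposited counts and the exon length of the longest RefSeq transcript in TAIR10.1, since the 12 TPM columns of single libraries were not used. Only the authors' deposited group means of TPM were set beside it.

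Genes were kept by filterByExpr (minimum count 10, minimum total 15) and tested for each pair of groups with edgeR 4.0.16 (R 4.3.3) on TMM-scaled counts, by quasi-likelihood tests with a prior count of 0.125 and Benjamini-Hochberg adjustment over all genes tested, with calls at 0.05. CPM per library was scaled by TMM over all 9 libraries. Intervals are 95% intervals of the fitted log2 fold change. Tested alternatives were DESeq2 1.42.0, other scalings and filters, limma 3.58.1 on log2(TPM + 1) with TPM computed here (added after the data were seen), a replicate block, and leaving out each library. The same steps were also run on simulated counts in which far fewer genes changed than were called here. That run therefore does not check the scaling when so many genes change. Columns carry the letters A to C, which are not the labels' replicate numbers. Same-lettered libraries did not deviate together in expression (correlations of −0.03 to 0.042), and the main fits did not pair them. These correlations cannot show whether such libraries were grown or prepared together.

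The 9 genes and all lists were chosen with earlier results of these data known. Genes named from the lists are those called with a log2 change of at least 1 in size, the highest and lowest of each list, and 7 chosen for their roles. Marker lists and repeated promoter letters were chosen after the data were seen. All 24635 IDs matched TAIR10.1. For the 9 genes the authors' deposited q-values gave the same calls in both comparisons with Col-0. Protein sequences were not used here.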

Additional observations from a re-analysis of the deposited data

How the results depend on the processing

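The 21 called values of the 9 genes kept their direction and call in 292 of 292 alternative fits, with a highest adjusted p of 9.13e-05. The 6 uncalled values were called in 0 of 83 fits (lowest adjusted p 0.0822), and 17 of these had the opposite sign, the largest in size being 0.17 for *CYP71A13* after riboflavin. In melinoe, *MYB34* had log2 fold changes of −0.015 with upper quartile scaling, −0.0033 among genes with a mean count of at least 50 and −0.055 with limma on log2 TPM computed here, and *SUR1* had −0.036 with limma on log2 TPM. Leaving out each library, *MYB34* ranged from −0.033 to 0.039 and *SUR1* from −0.011 to 0.042. After riboflavin, *CYP79B3* had −0.062 with upper quartile scaling, −0.011 among genes with a mean count of at least 50, −0.0015 with all 9 libraries in 1 fit and −0.0089 with limma on log2 TPM. Leaving out each library, it ranged from −0.036 to 0.028 and *CYP71A13* from −0.25 to 0.17. With the column letter as replicate block the 9 genes had 5 higher and 0 lower in melinoe and 4 higher and 3 lower after riboflavin, as without it.

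A mean count of at least 50 leaves out *CYP71A13*, giving 4 higher in melinoe and 7 lower in the direct comparison. On log2(TPM + 1), which understates low genes, its log2 fold change in melinoe was 0.85, beside 1.65. With limma on log2 TPM, 39.2% of all calls in melinoe were higher, beside 50.2% with edgeR. The planned fit on the deposited TPM of single libraries was not run. No scaling moved the median of all genes by over 0.1. The 9 to 43 counts per library of *CYP71A13* limit what can be seen of it.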
